A study of Drosophila melanogaster with 4 samples.

Results

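The 6 genes described here are rg, nAChRalpha2, Sidpn, Paip1, CG1416 and CG6340, measured in heads of adult male Drosophila melanogaster. They were selected on their measured values: each has a cDNA clone below the array median on both dye-swap arrays, which are arrays 3 and 4. Their low values on these 2 arrays are therefore a description and carry no test. The 6 genes own 16 of 27648 spots and 8 of 13824 clones, where a clone is the mean of 2 neighbouring duplicate spots. CG6340 has 3 clones and the others 1 each, and exactly 1 clone per gene meets the rule, so that 6 of the 8 clones are the low ones.

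Each of 4 arrays compared RNA from 1 head pool of gabapentin-fed flies with RNA from 1 pool of flies on normal food, so that an array is a biological replicate. All flies were unmated Oregon-R wild type males, 10 to 11 days old when they went onto food with 16 mg/ml gabapentin or onto normal food for 3 days, in vials of 30. Gabapentin is an anticonvulsant and analgesic drug whose mammalian target is the alpha2delta subunit of calcium channels. Gabapentin RNA carried Cy3 on arrays 3 and 4 and Cy5 on arrays 1 and 2. RNA came from whole heads, in which fewer cells of a type and less RNA per cell cannot be told apart.

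The genes work in different parts of the neuron and of general cell upkeep. Nicotinic receptors are pentameric cation channels opened by acetylcholine, the main fast excitatory transmitter of the insect brain, and nAChRalpha2 is an alpha subunit. rg (rugose) is a large A-kinase anchor protein of the BEACH family, which holds protein kinase A near its targets; it is the fly relative of mammalian neurobeachin and is known for roles in eye development, synapses and learning. Sidpn (similar to deadpan) belongs to the basic helix-loop-helix proteins of the Orange type, a class of transcriptional repressors. Paip1 binds the poly(A)-binding protein and, in mammals, promotes translation initiation. CG1416, with the synonym Aha1 in the RefSeq gene table, is related to the mammalian co-chaperone that stimulates the ATPase of Hsp90. No role is given for CG6340.

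The deposited value of a spot is a log2 ratio between the channels of an array. The values below are relative to the median of all clones on the same array, which was 0.52, 0.78, 1.14 and 0.80 on arrays 3, 4, 1 and 2. The labels do not say which channel is on top on the dye-swap arrays. If every value is Cy5 over Cy3, a low value on arrays 3 and 4 means relatively more of the transcript in gabapentin-fed heads than in normal food heads. If the authors had already turned these arrays, the same value means relatively less in gabapentin-fed heads. Arrays 3 and 4 gave values for 1376 and 668 clones, against 1880 and 2170 on arrays 1 and 2. A value on both dye-swap arrays was present for 235 clones. Precision is limited by how few arrays there are.

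**Figure D1:**
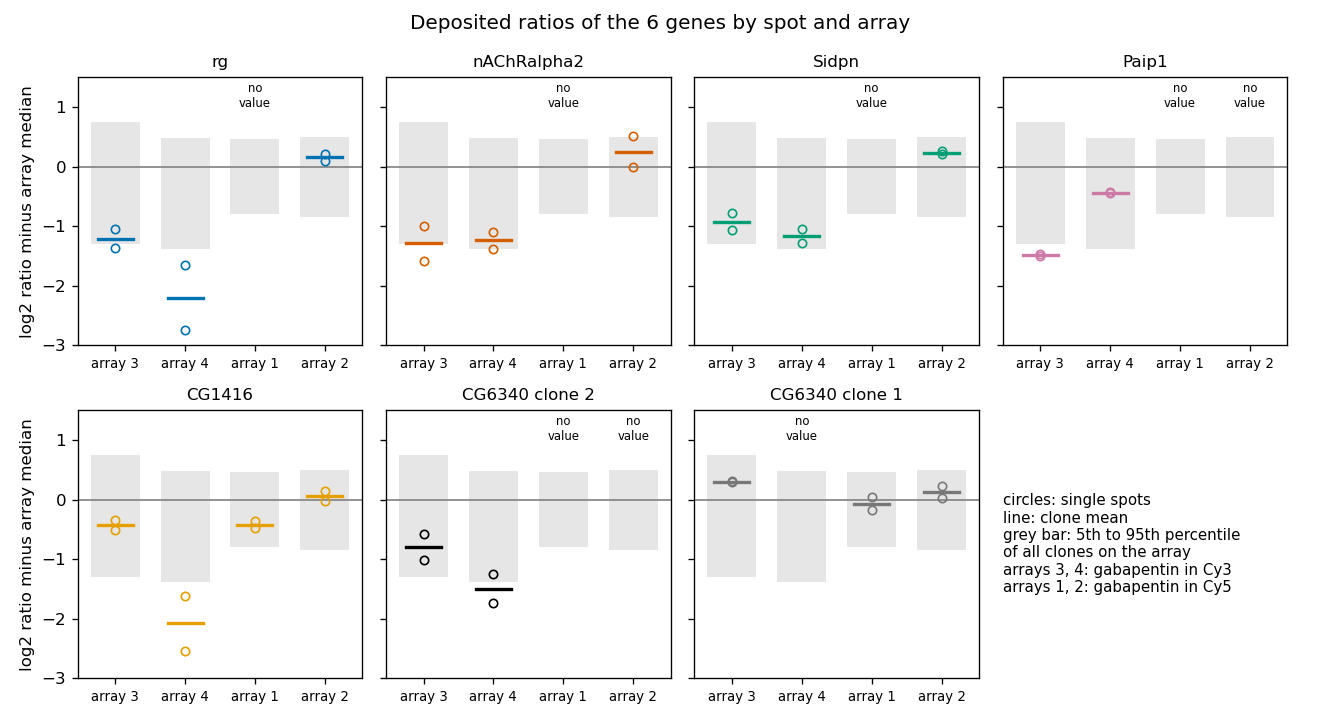
Log2 ratio minus array median for every measured spot (circles) and clone mean (line) of the 6 genes, by array, with arrays 3 and 4 (gabapentin in Cy3) left of arrays 1 and 2 (gabapentin in Cy5). Grey bars span the 5th to the 95th percentile of all clones on an array. The 6 low clones sit between -2.20 and -0.43 on arrays 3 and 4, and 4 of them lie slightly above the median on array 2, whereas clone 1 of CG6340 is at 0.30 on array 3.

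By the mean of arrays 3 and 4, rg was the lowest of all 235 clones and nAChRalpha2 was next. On single arrays the order differed: Paip1 and nAChRalpha2 were lower than rg on array 3, and CG1416 and CG6340 lower than nAChRalpha2 on array 4. The spots of rg read -1.05 and -1.37 on array 3 and -2.74 and -1.66 on array 4, against 0.10 and 0.21 on array 2. The clone of rg thus lay 2.31-fold below the median on array 3 and 4.59-fold below it on array 4. It stood at 0.16 on array 2, a value higher than that of 70.3% of the clones there. Array 1 gave no value for rg. Duplicate spots of rg on array 4 differed by 1.09 log2 units, a gap larger than 96.5% of those on the array, whose median was 0.175.

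The spots of nAChRalpha2 read -0.99 and -1.58 on array 3 and -1.38 and -1.10 on array 4, against 0.52 and -0.01 on array 2. Both dye-swap arrays gave nearly the same clone value, -1.29 and -1.24, or 2.44-fold and 2.36-fold below the medians. Only 5.09% and 5.69% of the clones on arrays 3 and 4 were lower. On array 2 the clone stood at 0.25, but there 1 spot was above the median and the other at it, and their gap was larger than 91.3% of all gaps. Array 1 had no value here either.

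Sidpn had the most even low values after nAChRalpha2. Its spots read -0.77 and -1.07 on array 3 and -1.28 and -1.06 on array 4, against 0.26 and 0.21 on array 2. The clone lay 1.90-fold and 2.25-fold below the medians of arrays 3 and 4, and stood at 0.23 on array 2, with no value on array 1. rg, nAChRalpha2 and Sidpn were thus low on both dye-swap arrays, slightly above the median on array 2, and missing on array 1. Low dye-swap values are the rule itself, and 5 of the 6 low clones had no value on array 1.

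Paip1 was measured on the dye-swap arrays alone. Its duplicate spots agreed closely, at -1.47 and -1.50 on array 3 and -0.43 and -0.44 on array 4, with gaps of 0.034 and 0.011. The clone means, -1.48 and -0.44, were 1.05 log2 units apart between the 2 arrays, against a median difference of 0.36 over the 235 clones and a 90th percentile of 0.82. With 17.1% of the clones lower, the array 4 value of Paip1 was among the less extreme ones of the 6 genes.

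CG1416, the Aha1 relative, is the only low clone with a value on all 4 arrays. Its spots read -0.35 and -0.52 on array 3 and -1.61 and -2.53 on array 4, against -0.36 and -0.48 on array 1 and 0.15 and -0.02 on array 2. Array 4 alone was far from the median, at -2.07, while the clone had -0.43 on array 3 and -0.42 on array 1. The mean over the dye-swap arrays, -1.25 ± 1.16 (SD, n = 2), thus rests on array 4, and it is -0.43 without it.

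CG6340 has clones that disagree. Clone 2, the low one, had spots at -1.01 and -0.58 on array 3 and at -1.26 and -1.73 on array 4, with no value on arrays 1 and 2. Clone 1 had both spots at 0.30 on array 3, against -0.18 and 0.04 on array 1 and 0.22 and 0.02 on array 2, with no value on array 4. Clone 3 had no value on any array. On array 3, where both can be compared, clone 2 stood at -0.79 and clone 1 at 0.30, a distance of 1.10 log2 units. Of 26 pairs of clones with the same symbol on array 3, 4 pairs including this one lay at least as far apart, and the median distance was 0.30. The 2 measured clones of CG6340 thus lay on opposite sides of the median on array 3. Clone 2 was picked as low on that array, so the distance and its place among the 26 pairs are a description.

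The rule admits many clones that are not described here. Among the 235 clones, 39 lay below the median on both dye-swap arrays, 89 above it on both and 107 on opposite sides. Of the 39, 25 carry 1 gene symbol, and the 6 genes have the lowest means among these, from -1.70 for rg to -0.96 for Paip1. The next named clone was that of SkpF, with -1.05 on array 3 and -0.32 on array 4, and 2 clones without a symbol had means of -1.08 and -0.83. Nearest to the boundary inside it were SAK, with -0.21 and -0.02 on arrays 3 and 4, and dlg1, with -0.30 and -0.02. Just outside were D1, with -0.07 and 0.00, and CG32278, with 0.02 and -0.06.

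**Figure D2:**
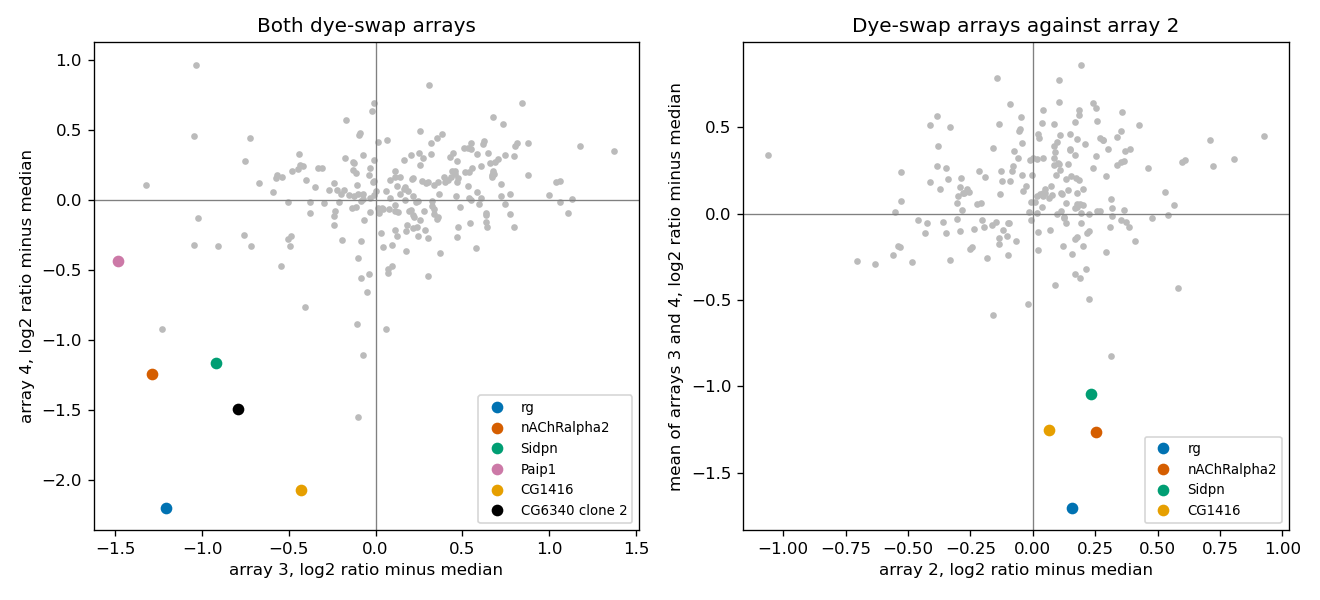
Left, log2 ratio minus median on array 4 against array 3 for the 235 clones measured on both; right, the mean of arrays 3 and 4 against array 2 for the 211 of these with a value on array 2. Coloured points are the 6 low clones, which lie in the lower left corner on the left side because they were chosen there; on the right side the 4 with a value on array 2 lie between 0.07 and 0.25 along the horizontal axis, within the range of the grey points.

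Arrays 1 and 2 were not used by the rule, and they are where the genes can be tested. There, 20 of 1096 clones passed (1.82%), 7 above and 13 below the median (limma, Benjamini-Hochberg adjusted p under 0.05), and none of them belongs to the 6 genes. At equal spread of the arrays 3 clones passed, and 0 after subtraction of a running median along the rows (limma, 114 clones had an unadjusted p under 0.05 with median centring). Only 2 of the 8 clones have values on both arrays. CG1416 had a mean of -0.18 ± 0.19 (SE, n = 2 arrays, limma adjusted p = 0.844), with a 95% interval from -0.55 to 0.20. Clone 1 of CG6340 had a mean of 0.03 ± 0.18 (SE, n = 2, limma adjusted p = 0.991), with an interval from -0.34 to 0.39. Drug and dye cannot be told apart on arrays of 1 orientation.

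On array 2 alone, the 4 low clones with a value all stood above the median, between 0.07 and 0.25, with a median of 0.20. For comparison, 129 of the 211 clones measured on both dye-swap arrays and on array 2 were above it, as were 11 of the 24 other clones low on both dye-swap arrays. With the even spot alone, 2 of the 4 were above it (nAChRalpha2 at -0.01 and CG1416 at -0.02). After subtraction of a running median along the rows, 3 of the 4 were above 0. This count on array 2 was not planned before the data were seen. On array 1 the only low clone with a value, CG1416, stood at -0.42, and 15 of the 24 other low clones were above the median. No test was made on a single array.

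The sizes of the 2 orientations can be set side by side for 4 genes. The dye-swap mean minus the value on the other arrays was -1.86 for rg, -1.51 for nAChRalpha2 and -1.28 for Sidpn, each against array 2 alone, and -1.07 for CG1416 against arrays 1 and 2. These are the 4 lowest of 220 clones with such a difference, whose 5th and 95th percentiles were -0.50 and 0.50. The rule chose low dye-swap values, so this order is a description. With arrays 3 and 4 turned, the mean over the measured arrays was 1.19 ± 1.02 for rg, 0.93 ± 0.58 for nAChRalpha2 and 0.77 ± 0.49 for Sidpn (SD, n = 3), and 0.54 ± 1.08 for CG1416 (SD, n = 4). As deposited, the means were -1.08 ± 1.18, -0.76 ± 0.87 and -0.62 ± 0.75 for rg, nAChRalpha2 and Sidpn, and -0.71 ± 0.93 for CG1416. The sign of each gene therefore follows from how the deposited values are read. Paip1 and clone 2 of CG6340, measured on the dye-swap arrays alone, had means of 0.96 ± 0.74 and 1.14 ± 0.50 turned (SD, n = 2), and the same sizes below 0 as deposited.

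Genes with the most similar values were found by the root mean square difference over the arrays on which a gene was measured. nAChRalpha2 and Sidpn were each other's nearest among 103 clones of other genes, at 0.21 log2 units over 3 arrays. rg was nearest to CG1416, at 0.46, then to nAChRalpha2 and Sidpn, at 0.56 and 0.62. Arrays 3 and 4, on which the 6 genes were picked as low, enter these distances. Closeness among the 6 genes is therefore a description. Outside the 6 genes, CG13784 was at 0.64 from nAChRalpha2 and 0.52 from Sidpn, and Hrb87F, which encodes an hnRNP protein, at 0.54 from Sidpn. Over 4 arrays and 91 clones, CG1416 was nearest to Hrb87F, Slob and Snp, at 0.62, 0.68 and 0.74. Clone 1 of CG6340 was nearest to CG10527, P5CS and Ccm3, at 0.03, 0.04 and 0.05 over 3 arrays. The median gap between duplicate spots was 0.15 to 0.19 on the 4 arrays.

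Low values on the dye-swap arrays were not spread evenly along the rows of the deposited table. In the last 2304 clones by row, 18.3% of measured clones on array 3 and 20.9% on array 4 lay more than 1 log2 unit below the median, against 6.63% and 5.10% in the other rows. On arrays 1 and 2 these shares were 5.62% and 1.59% in the last rows, against 3.08% and 3.46% in the others. Of the 6 low clones, 4 lie in the last rows (nAChRalpha2, Sidpn, CG1416 and clone 2 of CG6340), as do 21 of the 235 clones measured on both dye-swap arrays. Adjacent clones correlated at r = 0.26 on array 3 (242 pairs) and 0.48 on array 4 (82 pairs), against 0.09 on array 1 (490 pairs) and 0.39 on array 2 (532 pairs), as a description across clones that share an array.

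**Figure D3:**
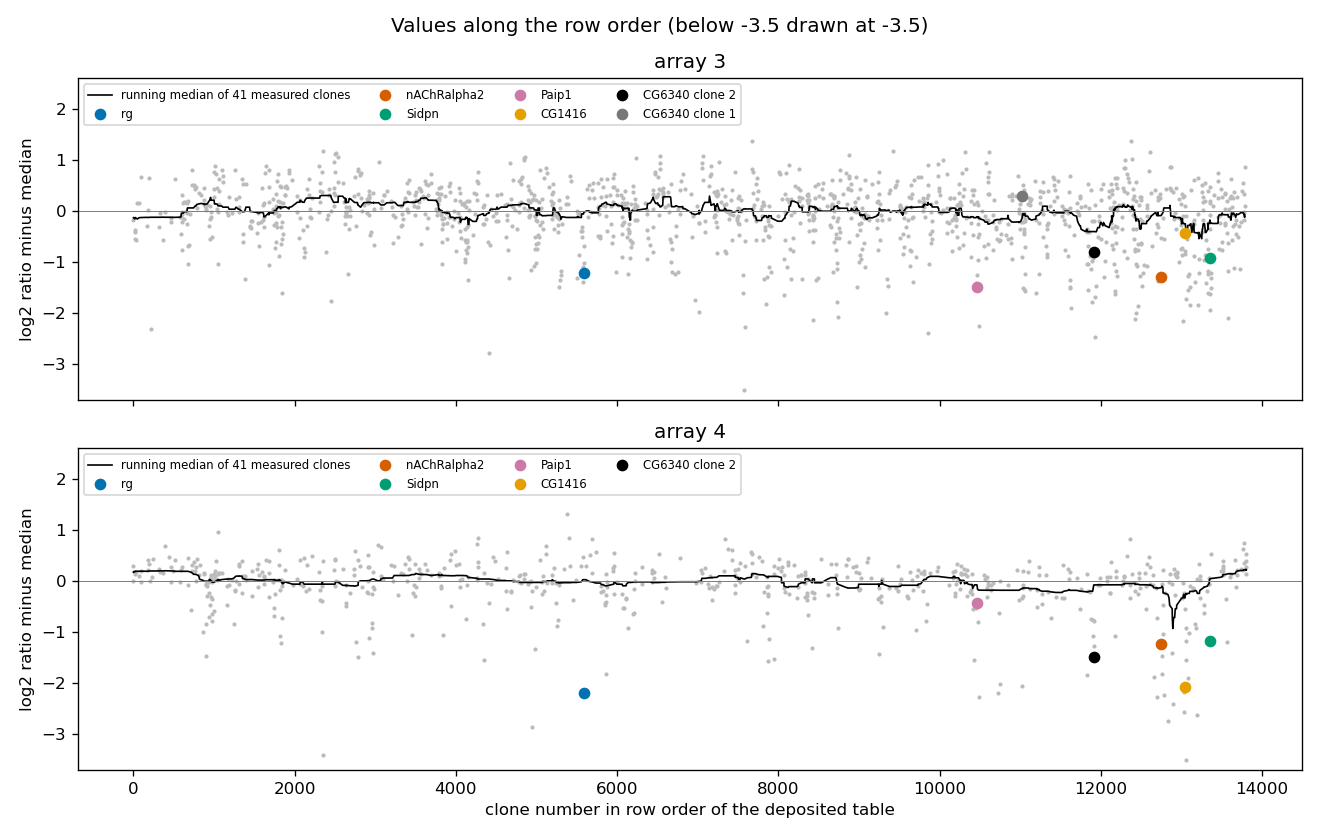
Log2 ratio minus array median for each measured clone (grey) along the row order of the deposited table, on array 3 (top) and array 4 (bottom), with a running median of 41 measured clones (line) and the clones of the 6 genes in colour. The last 2304 clones hold more values below -1 than the other rows on both arrays, and 4 of the 6 low clones lie there; values below -3.5 are drawn at -3.5.

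Set against the 20 measured clones nearest in row order, the genes differed in how far they stood out. The nearest clones lay up to 279 clones away, for rg on array 4. The value of rg minus the median of these clones was -0.99 on array 3 and -2.40 on array 4. The 4 measured clones within 10 clones of rg on array 3 were themselves low, from -1.39 to -0.69. For nAChRalpha2 this difference was -1.55 on array 3 and -0.65 on array 4, where 9 of the 20 nearest were under -1. rg and nAChRalpha2 thus stood below the median of their nearest clones on both dye-swap arrays, though 2 of the 20 were lower than rg on array 3 and 7 of the 20 lower than nAChRalpha2 on array 4. Sidpn, Paip1 and clone 2 of CG6340 were also below that median on both arrays, but by 0.20 or less on 1 of them. Sidpn differed from its 20 nearest clones by -1.21 on array 4 but by -0.07 on array 3, where 10 of the 20 were lower than it. The 7 measured clones within 10 clones of Sidpn on array 3 were less low, with a median of -0.072, though they ranged from -1.94 to 0.47. Paip1 differed from its 20 nearest clones by -1.24 on array 3 and by -0.20 on array 4. CG1416 differed by -1.78 on array 4, but on array 3 it was above its nearest clones, by 0.29. For each of Sidpn, Paip1 and CG1416, the distance from the 20 nearest clones was thus large on 1 of the arrays. Clone 2 of CG6340 differed by -1.26 on array 4 and by -0.04 on array 3, and the 4 measured clones within 10 clones of it on array 4 had values from -1.43 to -0.75. The part of row position in the low values was not tested.

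A missing value on array 1 was more frequent among the clones low on both dye-swap arrays. Of the 6 low clones, 5 had no value on array 1, against 14 of the 39 clones low on both dye-swap arrays, which include the 6, and 40 of all 235. The 40 clones without a value on array 1 had medians of -0.10 and -0.01 on arrays 3 and 4, against 0.19 and 0.07 for the 195 clones with one. The part of the authors' spot filter in this was not tested.

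Other genes of the same pathways had few values, from lists drawn up for acetylcholine, protein kinase A, Notch-type repressors, translation initiation and Hsp90. Of 74 listed genes, 31 were on the array, and besides the 6 genes 7 clones of 6 genes had values on at least 3 arrays. None of these 7 passed in either direction, with arrays 3 and 4 turned or as deposited. Across all 854 clones with at least 3 arrays, 0 passed in each reading (0% by limma adjusted p), with 19 and 130 at an unadjusted p under 0.05, while a one-class SAM statistic called 1 and 0. Without replicate 1, limma called 2 clones turned and 14 as deposited, of 1148 clones with at least 2 of the other arrays. Without replicate 2 or 3 it called 2 of 930 or 3 of 1202 as deposited. These sets of clones differ from the 854. All these fits use arrays 3 or 4 and include clones of the 6 genes, which were picked as low there. They are therefore no test of the 6 genes.

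Among nicotinic receptor genes, 5 of 10 were on the array, and nAChRbeta1, a beta subunit, was the only other one with a value, -0.32 on array 3. Of genes for acetylcholine handling, Ace, the acetylcholinesterase, had -0.23 on array 4, and ChT, a choline transporter, 0.05 on array 2. No other receptor subunit was measured on both dye-swap arrays.

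In the protein kinase A list, 4 of 15 genes were on the array. Pka-R1, a regulatory subunit that anchor proteins can bind, had -0.50 on array 3, against 0.01 and -0.22 on arrays 1 and 2. Galphas, the G protein subunit that activates adenylyl cyclase, had -0.31 on array 3, against -0.15 and 0.26 on arrays 1 and 2. Their means were 0.10 ± 0.19 and 0.14 ± 0.18 turned (SE, n = 3) and -0.24 ± 0.15 and -0.07 ± 0.16 as deposited, and neither passed. The median of the list, which rests on these 2 clones, was 0.12 turned and -0.15 as deposited, against 0.00 and 0.09 over all clones tested.

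Genes that work with Paip1 had no value on array 4. pAbp, the poly(A)-binding protein itself, had 0.14 on array 3, against 0.12 and 0.12 on arrays 1 and 2. Paip2, a repressor that binds the same protein, had 0.10 on array 3 and 0.23 on array 2. The scaffold eIF4G1 had -0.20 and 0.08 on array 3 in its 2 clones, against -0.18 and -0.45 on array 1 and -0.48 and 0.13 on array 2. The list had a median of -0.13 turned and -0.08 as deposited, from 3 clones of 2 genes.

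Of the Hsp90 and chaperone list, the Hsp40 genes Droj2 and DnaJ-1 had -0.14 and 0.07 on array 3, against -0.04 and -0.22 on array 1 and 0.34 and 0.01 on array 2, and a further DnaJ-1 clone had -0.15 on array 2 alone. The list had a median of 0.03 turned and 0.00 as deposited, from 2 clones. The 4 genes of the Notch and bHLH-Orange list on the array, among them dpn, gave no value. Head tissue markers were measurable for the eye, with trp on 3 arrays and inaD and chp on 4, and for glia with Gs2 on 4. Of the 6 neuron markers listed, only nSyb was on the array, and it gave no value. trp, inaD, chp and Gs2 lay above the median on each array where they had a value, from 0.08 to 0.93. Of these 4 genes, inaD alone passed on arrays 1 and 2 (limma adjusted p = 0.029), where no clone passed after subtraction of a running median. Over 4 arrays inaD passed in neither reading (limma adjusted p = 0.999 turned and 0.209 as deposited). The muscle actin Act79B had 0.85 and 0.70 on arrays 3 and 4, against 0.10 on array 2, and Act88F had 0.83 on array 3, against 0.00 and 0.53 on arrays 1 and 2. Mlc2, a myosin light chain, had 0.13 on array 3, against 0.10 on arrays 1 and 2. The fat body lipoprotein apolpp had -0.01 and 0.69 on arrays 3 and 4, against 0.07 and -1.06 on arrays 1 and 2, and its other clone had -0.20 and -0.96 on arrays 1 and 2. The part of these tissues in the values of the 6 genes was not tested.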

How the data were processed

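Head RNA was hybridised to 4 cDNA arrays with 2 colours, which form 1 group with 4 biological replicates. Per the series' design text, the authors quantified spots with GenePix Pro 6.0, normalized ratios with Acuity 4.0 and kept spots that passed filters on saturation, flags, channel regression and signal-to-noise. They then ran SAM 2.21. The deposited values were taken as log2 ratios: the largest size, 9.11, exceeds what 16-bit scans allow in log10 (4.82) and, with the weaker channel at the authors' minimum of 100 units, in natural log (6.49), but not in log2 (9.36). No intensities were used.

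Duplicate spots were averaged, and the median of each array over all measured clones was subtracted. Gene names are those of the platform annotation, brought up to date by Entrez ID in RefSeq's gene list (14894 of 15116 spots with 1 symbol matched, and all 16 of the 6 genes). No coordinates are given, since no build is named, and no sequences of these genes were used here. Clones on arrays 1 and 2 were fitted with limma 3.58.1 in R 4.3.3 (intercept, eBayes, Benjamini-Hochberg). Clones with at least 3 arrays were fitted likewise in both readings of the dye swap. The fit was also run on simulated data with equal noise on all clones and no row trends. That run does not show how the fit handles the uneven spread of these arrays. SEs are moderated over all clones. Row order was taken as a position along the table, without knowledge of the print layout. By rule, the text names the 6 genes, the 3 nearest clones of each gene with at least 3 arrays, and listed pathway genes with values on at least 3. SkpF, the genes at the edge of the selection, the tissue markers, dpn and the pathway genes with fewer arrays were named after their values were seen. The genes and lists were chosen with earlier results of these data known. Alternatives were no centring, equal array spread, single spots, running medians, left-out replicates and SAM. Python 3.11.15 and pandas 2.3.3 served for all tables.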

Additional observations from a re-analysis of the deposited data

How the results depend on the processing

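On arrays 1 and 2, limma called 20 clones, but 1060 without centring, 3 with the arrays at equal spread and 0 after subtraction of a running median along the rows. Over the 854 clones with at least 3 arrays as deposited, 833 were called without centring and 1 at equal spread, against 0 with centring alone. With arrays 3 and 4 turned, SAM called 1 clone. Fits without 1 replicate took clones with at least 2 of the other arrays, 930 to 1398 clones. They called 0 to 14 clones as deposited and 0 to 2 turned, on sets of clones that differ from the 854. The cause of these changes was not tested, except that uncentred columns carry their positive medians. Above the median on array 2 stood 4 of the low clones, 3 after subtraction of a running median and 2 with the even spot alone.

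Over all alternatives, 58 values for single genes moved by less than 1 SD between arrays (for genes on 1 array, the median SD of clones on arrays 1 and 2) and 16 by more, 7 of these without centring. The SD on the dye-swap arrays was 0.03 for nAChRalpha2 but 1.16 for CG1416, so this tally does not rank genes by stability. nAChRalpha2 counted as moved at -1.19 with the odd spot alone, against -1.26. CG1416 did not count as moved at -0.43 without replicate 4, against -1.25. The dye-swap means of the 6 low clones kept their sign under the running median, equal spread, single spots, left-out replicates and subtraction of the nearest 20 clones, a setting chosen after the data were seen. With left-out replicates and equal spread this sign was fixed in advance, because the rule took clones below the median on both arrays. The dye-swap means ranged from -2.20 to -1.21 for rg, -1.34 to -1.05 for nAChRalpha2, -1.17 to -0.64 for Sidpn, -1.48 to -0.44 for Paip1, -2.07 to -0.43 for CG1416 and -1.50 to -0.65 for CG6340. Without centring they were -1.05 for rg, -0.61 for nAChRalpha2, -0.40 for Sidpn, -0.31 for Paip1, -0.60 for CG1416 and -0.49 for CG6340. On arrays 1 and 2, nAChRalpha2 changed sign with the even spot alone, at -0.01, and CG1416 without replicate 1, at 0.07, and without centring, at 0.79. Intensities were not used here, so signal over background is not given.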
